A study of Homo sapiens with 3 samples.

Results

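The genes described here are the protein-coding ZNF genes of human chromosome 19, taken as every listed gene of that class and chromosome whose symbol is ZNF followed by a number. They came to 214 of the 21726 genes in the deposited table. The rule uses names and position only, but it was applied to a table in which every gene had at least 1 count over the libraries. ZNF genes of chromosome 19 without any count are therefore not among the members. Another 227 protein-coding ZNF genes lie on other chromosomes, and chromosome 19 holds 821 further protein-coding genes in the table.

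Most genes named ZNF encode C2H2 zinc finger proteins, in which rows of small zinc-binding folds read DNA sequence. Many of those on chromosome 19 also carry a KRAB domain, which recruits the scaffold protein TRIM28 (KAP1). TRIM28 in turn brings the histone methyltransferase SETDB1 and the heterochromatin proteins CBX1, CBX3 and CBX5, and many targets are transposable elements. The genes arose by repeated duplication, lie in tandem clusters, and can resemble their neighbours closely.

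RNA was sequenced from 3 lines of PC3-Luc, a human prostate adenocarcinoma line that carries luciferase from a pMSCV-luc construct. The control line held a control hairpin, and the lines sh718 and sh720 each held a hairpin against CTHRC1, a secreted glycoprotein linked to cell migration. All lines were grown for 24 h before RNA was taken, and each is represented by 3 libraries. GEO lists 1 sample per line, so n = 3 counts the numbered libraries of that sample. The labels do not say whether a line is 1 clone or a pool, or whether its libraries came from separate cultures, so p-values measure the spread between libraries, which may be technical.

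Library totals ran from 883663 to 1108960 counts, and mitochondrial genome transcripts took 12% to 16.4% of them. The targeted gene itself, CTHRC1, had 331 counts over the control libraries, 5 over sh718 and 47 over sh720, and every library of both hairpin lines lay below every control library. The epithelial keratin genes KRT8, KRT18 and KRT19 had 547 to 2853 counts per line, while the junction gene CDH1 had 6, 1 and 8 in control, sh718 and sh720, and EPCAM 108, 40 and 120. Leukocyte markers summed to 0, 6 and 4 counts and fibroblast markers to 14, 10 and 14. The endothelial list rested on PECAM1 alone (69, 138 and 59), with VWF and CDH5 absent from the listed genes. The neuroendocrine list rested almost wholly on ENO2 (124, 223 and 187, against 1, 0 and 1 for SYP). By these sums EPCAM was lower and PECAM1 and ENO2 higher in sh718 than in control, and ENO2 was also higher in sh720. No test of these sums is given, and the part of these genes in the results was not tested.

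At this depth the family was thinly covered. The lowest member had 1 count over the 9 libraries, the median member 57 and the highest, ZNF121, 1393. A total of 148 members had a count in all 9 libraries, and 32 had fewer than 10 counts over all of them. Per library, between 180 and 194 of the members were detected. In the control line 15 members had no count, against 17 in sh718 and 8 in sh720. A count of 0 over a line allows up to 3 counts, so these members are below detection at this depth, not shown to be silent.

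Levels are given as CPM, the count scaled to a fixed library size, after TMM, a method that sets libraries to a common baseline. Per kilobase of exon the median member stood at 1.28 CPM in control, against 1.61 for ZNF genes elsewhere and 3.02 for the other coding genes of chromosome 19. The middle 50% of members lay between 0.389 and 2.30 CPM per kilobase. The highest member per kilobase was ZNF358, at 40.2 in control, 33.4 in sh718 and 39.2 in sh720. ZNF581 followed at 28.9, 28.3 and 36.4, and then ZNF121 at 24.9, 22.7 and 19.6. ZNF787 stood at 23.7, 24.8 and 23.1, and ZNF580 at 23.5, 32.5 and 27.0. In control ZNF358 stood clear of ZNF581 by more than the spread of either, while each later neighbour in that order lay within 1 SD of the one before. ZNF358, ZNF581 and ZNF787 were called in no comparison.

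Taken as 1 sum, the family held a small and steady share of each library. The control libraries gave 0.232%, 0.229% and 0.238% of counts, the sh718 libraries 0.252%, 0.240% and 0.250%, and the sh720 libraries 0.240%, 0.247% and 0.256%. Every hairpin library thus lay above every control library, by a narrow margin. The part of mitochondrial counts in this was not tested. They took 14.4% to 16.4% in control, 12.7% to 15.2% in sh718 and 12% to 15.1% in sh720, in overlapping ranges. As a share of all other counts the family stood at 0.270% to 0.285% in control, 0.275% to 0.296% in sh718 and 0.283% to 0.291% in sh720, and both hairpin lines then overlapped control. As a sum of TMM-scaled CPM it ran from 2329.8 to 2442.4 in control, 2467.7 to 2619.6 in sh718 and 2429.7 to 2463.7 in sh720, so that sh718 lay above control and sh720 overlapped it. No test was made on this sum.

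**Figure D1:**
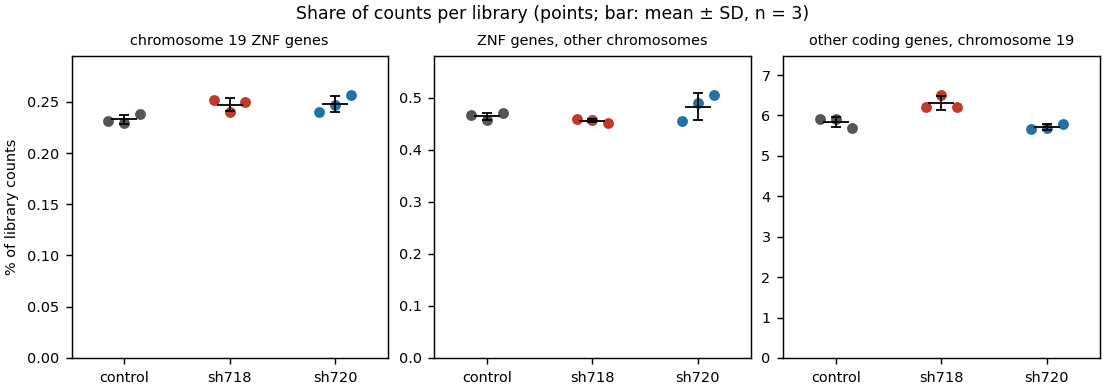
Share of library counts (%) taken by the chromosome 19 ZNF genes, by ZNF genes elsewhere and by the other coding genes of chromosome 19, for the 3 libraries of each line (points) with mean ± SD. The family mean was 0.233% in control, 0.247% in sh718 and 0.248% in sh720.

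Genes were tested with edgeR, over all 9556 genes with a summed count of at least 60, and called at an adjusted p under 0.05 (Benjamini-Hochberg over all of them). Of the 214 members, 104 met that minimum and 110 did not. ZNF563, with 60 counts, was just inside, and ZNF528 and ZNF587B, with 58 each, just outside. A gene can pass through the line where it is high, as ZNF544 did, so counts over the tested members do not describe all members.

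In sh718 against control 5 members were called higher and 3 lower, where 9.56% and 10.8% of all tested genes were. Those higher were ZNF544, ZNF428, ZNF791, ZNF432 and ZNF580, and those lower were ZNF146, ZNF468 and ZNF530. In sh720 against control 2 were called higher, ZNF544 and ZNF699, and 1 lower, ZNF121, where 3.43% and 3.42% of all tested genes were. In sh718 against sh720, the test of a difference between the hairpin lines, 4 were called higher and 4 lower, where 12.3% and 13.0% of all tested genes were. In all, 14 tested members were called at least once and 90 never. Only ZNF544 was called in both hairpin lines, where 2.27% of all tested genes were called in 1 direction in both, and those comparisons share their control libraries.

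The share of members called was 7.69% in sh718, against 20.4% of all tested genes, and 2.88% in sh720, against 6.85%. Depth differs between these groups, since tested members had a median of 119.5 counts and all tested genes 292.5. Within the range of 60 to 119 counts, 4 of 52 members (7.69%) were called in sh718 against 10.1% of all genes, and 1 of 52 (1.92%) in sh720 against 2.03%. From 120 to 299 counts, 1 of 40 members (2.5%) was called in sh718 against 12.2% of all genes, and 1 of 40 in sh720 against 2.97%. At 300 counts or more it was 3 of 12 (25%) against 29.6%, and 1 of 12 (8.33%) against 11.2%. In both lines the members' share was the lower one in each range. Against control the gap was widest in sh718 from 120 to 299 counts. Elsewhere in those 2 comparisons the shares were near those of all genes, given so few members called. No test of that difference was made. Between the hairpin lines, 1 of 52 members (1.92%), 2 of 40 (5.0%) and 5 of 12 (41.7%) were called in these ranges. Among all genes it was 13.5%, 16.9% and 35.3%. The members' share was thus lower in the first 2 ranges, by more than in any range against control, and higher in the last. These gaps were not tested either.

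**Figure D2:**
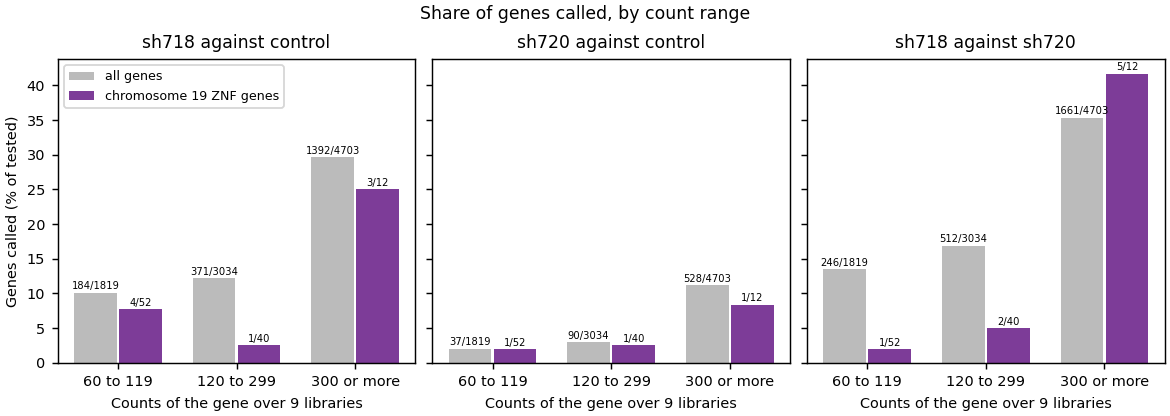
Percent of tested genes called (adjusted p under 0.05) in each comparison, by the gene's summed count over 9 libraries, for all genes (grey) and chromosome 19 ZNF genes (purple). Numbers over bars are genes called over genes tested, and in sh718 against control the family gave 4 of 52, 1 of 40 and 3 of 12.

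ZNF544 (ENSG00000198131) moved farthest. It encodes a C2H2 zinc finger protein and lies near the end of the long arm (GRCh38 chromosome 19, 58228594 to 58277495, plus strand). The control libraries held 0, 0 and 1 count, the sh718 libraries 11, 17 and 19, and the sh720 libraries 14, 10 and 7. All hairpin libraries were above all control libraries, and the lowest hairpin library held 7 counts. The sh718 and sh720 libraries overlapped each other.

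On the CPM scale ZNF544 stood at 0.308 ± 0.534 in control, 16.7 ± 3.60 in sh718 and 10.5 ± 3.80 in sh720 (SD, n = 3). The ratio of summed counts was 48.2 in sh718 (exact 95% interval 8.24 to 1944) and 29.8 in sh720 (4.97 to 1216), intervals that cover counting error only and are wide because control held 1 count. The edgeR adjusted p was 1.42e-08 for sh718 and 1.7e-05 for sh720, and both calls were kept when any single library was left out. The difference between the hairpin lines was 0.68 on the log2 scale (SE 0.34, edgeR adjusted p 0.134). DESeq2 called it in sh718 (adjusted p 0.000359) and gave no adjusted p in sh720, where its unadjusted p was 0.000147.

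The promoter of ZNF544 is shown because this gene went from near 0 counts to a clear signal in both lines, beside those of ZNF146, called lower in sh718, and ZNF699, called higher in sh720. Each run gives the 250 bases before the RefSeq start (GRCh38.p14), 5′ to 3′ on the gene's strand, with CpG dinucleotides in capitals. They are chr19:58228664-58228913 (plus strand), chr19:36214856-36215105 (plus strand) and chr19:9309839-9310088 (minus strand). The runs of ZNF544 and ZNF146 lie inside the gene spans given in the text, which come from GENCODE and begin farther upstream. That of ZNF699 lies just outside its span.
ZNF544: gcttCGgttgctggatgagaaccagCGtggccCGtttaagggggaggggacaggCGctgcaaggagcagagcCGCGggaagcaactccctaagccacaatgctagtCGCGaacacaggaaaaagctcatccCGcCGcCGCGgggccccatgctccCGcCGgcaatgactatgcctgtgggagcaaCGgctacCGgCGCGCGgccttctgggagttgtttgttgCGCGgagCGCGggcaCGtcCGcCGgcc
ZNF146: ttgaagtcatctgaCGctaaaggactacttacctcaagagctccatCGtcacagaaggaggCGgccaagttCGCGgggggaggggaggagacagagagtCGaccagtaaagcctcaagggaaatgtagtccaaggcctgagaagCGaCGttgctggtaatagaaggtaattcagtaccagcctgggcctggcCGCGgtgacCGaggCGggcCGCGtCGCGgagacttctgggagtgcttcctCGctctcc
ZNF699: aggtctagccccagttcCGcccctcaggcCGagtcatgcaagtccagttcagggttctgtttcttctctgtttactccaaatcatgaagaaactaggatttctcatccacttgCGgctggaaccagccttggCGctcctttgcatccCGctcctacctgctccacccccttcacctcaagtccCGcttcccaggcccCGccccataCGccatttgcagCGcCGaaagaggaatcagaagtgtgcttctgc

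The run of ZNF544 holds 26 CpG, that of ZNF146 17 and that of ZNF699 10. CpG are the sites of DNA methylation in vertebrates, and methylation was not measured here. Over the whole RefSeq window of 300 bases, which adds 50 bases after the start, ZNF544 holds 31 CpG, a number reached by 11% of the 191 members with a window and by 20.7% of all 35116 windows. At least 1 CpG stands in 96.0% of all windows. The set of all windows was not narrowed to protein-coding genes or to 1 window per gene, as the members' was. The 2 sets are therefore not matched, here or for the motifs below. The members ranged from 2 to 49 CpG with a median of 21, against 14 for all windows. Tested members had a median of 22 CpG and members under 10 counts 18.5.

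Of 5 motifs searched on both strands of the same windows, the ETS core CCGGAAG was in 44.0% of member windows and in 10.3% of all windows. The CCAAT box (CCAAT) was in 51.3% of member windows and 34.6% of all, and the TATA box (TATAAA) in 2.09% and 11.5%. The NRF1 core CGCATGCG was in 3.14% and 2.02%, and the YY1 word AAGATGGCG in 3.66% and 1.75%. None of these words contains another, although matches can overlap, and the ETS, NRF1 and YY1 words each include a CpG. ZNF544 held the CCAAT and ETS words, both in the bases after the start, and ZNF699 held the NRF1 core across its start. ZNF146 matched none of the 5.

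The ZNF genes beside ZNF544 showed no such change. On the side towards the centromere, ZNF606 had 22 counts over control, 22 over sh718 and 30 over sh720, ZNF329 had 45, 34 and 46, and ZNF274 had 33, 32 and 44. ZNF274 is a KRAB zinc finger protein that binds the 3′ ends of other zinc finger genes with TRIM28 and SETDB1. On the telomere side, ZNF8, which begins at 58278951, had 42, 44 and 32 counts, ZNF497 had 3, 3 and 2, and ZNF837 had 12, 16 and 20. Of these 6, the 4 tested ones (ZNF606, ZNF329, ZNF274 and ZNF8) were called in no comparison, with log2 changes from -0.44 to 0.39 against control.

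An antisense gene that overlaps ZNF544 and runs past its end, AC020915.3, had 9, 9 and 13 counts. A read-through gene, AC020915.5, shares 5.47% of the distinct 75-base words of ZNF544 transcripts, 75 bases being the read length. The labels do not say whether counting used strand. ZSCAN18, a SCAN zinc finger gene in the same stretch picked after its values were seen, had 44, 92 and 48 counts and rose in sh718 (log2 1.09, edgeR adjusted p 0.00243). ZSCAN22, a relative beyond ZNF8 picked the same way, had 18, 35 and 13 counts, with every sh718 library above control (log2 0.98, edgeR adjusted p 0.0743) and a difference of 1.49 between the hairpin lines (adjusted p 0.00661).

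ZNF146 (OZF; ENSG00000167635, 36214602 to 36238774, plus strand), a protein made almost wholly of zinc fingers, fell in sh718. It had 77, 50 and 76 counts in control, 30, 34 and 32 in sh718, and 82, 55 and 68 in sh720. The sh718 libraries were close to each other and all below the other 6. Its level was 71.1 ± 15.2 CPM in control, 34.5 ± 0.751 in sh718 and 69.1 ± 13.8 in sh720. Against control it fell by 1.04 on the log2 scale in sh718 (SE 0.18, edgeR adjusted p 9.06e-06), while sh720 gave -0.04 (SE 0.15, adjusted p 0.924), and the lines differed by -1.0 (SE 0.18, adjusted p 1.47e-05).

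ZNF146 lies within the span of ZNF565, a ZNF gene on the opposite strand. ZNF565 had too few counts for the test, with 8 in control, 14 in sh718 and 2 in sh720. Its ratio of sh718 over sh720 was 7.46 (exact 95% interval 1.71 to 67.6), the opposite order to ZNF146.

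ZNF428 (ENSG00000131116, 43607219 to 43619874, minus strand) rose in sh718. It had 12, 19 and 26 counts in control, 34, 34 and 49 in sh718, and 14, 15 and 21 in sh720. The sh718 libraries lay above all others. Its level went from 19.7 ± 5.49 CPM to 42.1 ± 9.01 (log2 1.07, SE 0.24, edgeR adjusted p 0.000501), with 16.8 ± 3.16 in sh720, and the lines differed by 1.31 (SE 0.25, adjusted p 2.57e-05).

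ZNF791 (ENSG00000173875, 12610918 to 12633840, plus strand) also rose in sh718, with 62, 47 and 86 counts in control, 99, 84 and 102 in sh718, and 71, 61 and 88 in sh720. Scaled to library size the sh718 libraries lay above control but overlapped sh720. It rose by 0.59 on the log2 scale (SE 0.15, edgeR adjusted p 0.00203), while sh720 gave 0.12 (SE 0.16, adjusted p 0.751). The difference between the lines, 0.47 (adjusted p 0.0113), was not called without sh718 library 1 or 3 or sh720 library 2 (adjusted p 0.0509 to 0.0976). The span of ZNF791 lies inside that of ZNF490 on the other strand, which had 43, 47 and 53 counts.

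The calls of ZNF146, ZNF428 and ZNF791 in sh718 against control, like that of ZNF544, were kept whichever library was left out, and by DESeq2. The other 4 calls of that comparison were each lost when certain single libraries were left out. ZNF432 had 5, 3 and 11 counts in control, 16, 9 and 15 in sh718, and 10, 10 and 8 in sh720. Its change of 1.1 in sh718 (edgeR adjusted p 0.0388) was not called without sh718 library 1 or 3 or control library 1 or 2 (0.111 to 0.19). ZNF580 had 53, 53 and 76 counts in control and 70, 81 and 93 in sh718. Its change of 0.46 (edgeR adjusted p 0.0156) was not called without sh718 library 3 or control library 1 or 2 (0.0605 to 0.119). ZNF580 shares 9.54% of its 75-base words with other genes, mostly its neighbour ZNF581, which changed by -0.03 (adjusted p 0.941).

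ZNF468 had 12, 20 and 14 counts in control, 6, 6 and 7 in sh718, and 11, 15 and 10 in sh720. Its change of -1.22 in sh718 (edgeR adjusted p 0.0134) was not called without sh718 library 2 or control library 2 (0.0546 and 0.127). ZNF468 is the most ambiguous of the called members, since 53.2% of its 75-base words also occur in another gene, chiefly ZNF320. Its span overlaps ZNF320 and ZNF28 on the same strand, which had 88, 75 and 88, and 37, 18 and 30 counts over the lines. ZNF530 had 17, 10 and 16 counts in control, 6, 10 and 4 in sh718, and 11, 12 and 19 in sh720. Its change of -1.05 in sh718 (edgeR adjusted p 0.0399) was not called without sh718 library 1 or 3 or control library 1 or 3 (0.0818 to 0.2).

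In sh720, ZNF699 was called higher. Its relative in Drosophila, hangover, acts in the response to ethanol. ZNF699 (ENSG00000196110, 9294275 to 9309838, minus strand) had 14, 9 and 25 counts in control, 14, 10 and 11 in sh718, and 32, 26 and 32 in sh720. Scaled to library size, all sh720 libraries stood above the others. The rise over control was 0.85 on the log2 scale (SE 0.27, edgeR adjusted p 0.0358), while sh718 gave -0.41 (SE 0.33, adjusted p 0.413). That rise was not called when sh720 library 1 or 3, or control library 1 or 2, was left out (0.11 to 0.243). The difference between the hairpin lines, -1.26 (SE 0.29, adjusted p 0.000458), was called whichever library was left out.

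ZNF121, the member with the most counts, was called lower in sh720. It had 148, 177 and 189 counts in control, 148, 156 and 154 in sh718, and 131, 151 and 139 in sh720. Scaled to library size the sh720 libraries all lay below control, with a mean of 142 ± 12.9 CPM against 180 ± 17.2. The log2 change was -0.34 (SE 0.11, edgeR adjusted p 0.0418), and it was not called when sh720 library 1 or 3, or control library 2 or 3, was left out (0.0773 to 0.237).

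Between the hairpin lines, ZNF426, ZNF557, ZNF614 and ZNF677 were called beside ZNF146, ZNF428, ZNF699 and ZNF791, and none of those 4 was called against control. ZNF426 had 16, 30 and 39 counts in sh718 and 47, 47 and 69 in sh720, with 28, 33 and 52 in control. The control libraries overlapped sh718 and, once scaled, lay below sh720. The difference was -0.85 (SE 0.21, edgeR adjusted p 0.00114), called whichever library was left out. ZNF614 had 10, 9 and 15 counts in sh718 against 4, 5 and 3 in sh720 and 7, 6 and 4 in control (log2 1.56, SE 0.45, adjusted p 0.00572, or 0.0531 without sh718 library 3). ZNF614 and ZNF432 are neighbours on the same strand, ending at 52030240 and starting at 52031379. ZNF614 lay at 1.02 against control in sh718 without being called (adjusted p 0.0691).

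ZNF677 had 32, 40 and 49 counts in sh718, 53, 64 and 66 in sh720 and 38, 34 and 52 in control. The hairpin lines differed by -0.50 (SE 0.17, edgeR adjusted p 0.0223), and the call was lost without sh718 library 1 or 2 or sh720 library 2 or 3 (0.0744 to 0.0946). ZNF557 had 70, 61 and 57 counts in sh718, 50, 55 and 45 in sh720 and 48, 49 and 54 in control. Its difference of 0.42 (edgeR adjusted p 0.0499) was lost without sh718 library 1, sh720 library 1 or 3, or any control library (0.0517 to 0.305).

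**Figure D3:**
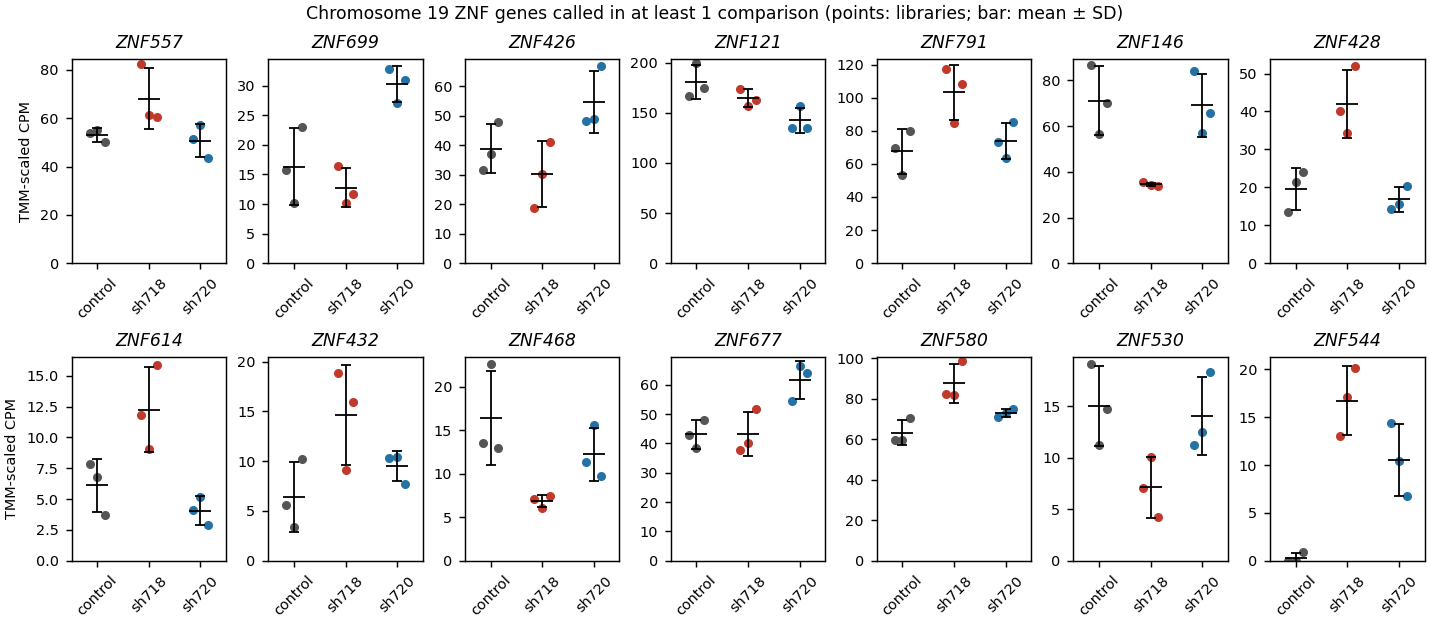
TMM-scaled CPM of the 14 tested members called in at least 1 comparison, in the 3 libraries of each line (points) with mean ± SD. The ZNF544 panel shows 0.308 CPM in control against 16.7 and 10.5 in the hairpin lines, and the ZNF146 panel shows sh718 alone low at 34.5.

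Among the 110 members under the count minimum, a fit without that minimum called 3, all picked here after their values were seen. It called 1 of 110 in sh718 (0.909%), where 1.02% of all 12170 genes under the minimum were called, and 2 of 110 between the hairpin lines (1.82%), where 1.57% were. In sh720 it called 0.296% of those genes and no member among the 110. These shares were near the general rate. ZNF763 had 0, 1 and 0 counts in control, 3, 4 and 7 in sh718, and 2, 7 and 2 in sh720. Summed over libraries the ratio to control was 14.4 in sh718 (exact 95% interval 2.18 to 607, edgeR adjusted p 0.0105 in that fit) and 10.6 in sh720 (1.54 to 456, adjusted p 0.117). Of its 75-base words 46.1% also occur in the overlapping gene AC008770.2. ZNF565, described above, and ZNF737 were called between the hairpin lines (adjusted p 0.0268 and 0.0333), ZNF737 with 4 counts in control, 8 in sh718 and 0 in sh720.

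Also near 0 in control were ZNF382, ZNF790 and ZNF224, with 1, 1 and 2 counts there, 11, 10 and 11 in sh718, and 3, 5 and 5 in sh720. ZNF224 encodes a KRAB repressor known from work on the aldolase A gene. None of these 3 was called in the fit without the count minimum (adjusted p 0.0615, 0.0881 and 0.145 in sh718). No member had 0 counts in 1 line and 10 or more in another.

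The members lie in 17 stretches when a gap of at least 1 Mb between starts divides them, and 7 of these stretches, with at least 10 members each, hold 189. The largest, 55476332 to 58481230 at the end of the long arm, has 54 members, 33 of them tested. Its summed level was 652 to 720 CPM in the control libraries, 745 to 769 in sh718 and 738 to 744 in sh720. ZNF544, with 16.7 CPM in sh718, made up part of that distance. The next, 51571298 to 53580269, has 39 members, 25 tested, at 452 to 503 CPM in control, 501 to 568 in sh718 and 493 to 533 in sh720, and these ranges overlapped.

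On the short arm, the stretch from 11483427 to 12640098 has 25 members, 12 tested, at 195 to 238 CPM in control, 249 to 306 in sh718 and 230 to 245 in sh720. The sh718 libraries stood above all control libraries. ZNF791, at the end of this stretch, made up part of that distance, with a mean of 67.5 CPM in control and 103 in sh718. The stretch from 7069444 to 9793180, with ZNF699, ZNF426, ZNF121 and ZNF557, has 12 of 13 members tested and stood at 468 to 510, 455 to 504 and 462 to 520 CPM. The stretch from 19668796 to 21556270 was thinly expressed, with 4 of 12 members tested, and its promoters had a median of 9.5 CpG. On the long arm coverage was also thin from 36182060 to 37817300, around ZNF146, with 5 of 25 members tested, and from 43525497 to 45076588, around ZNF428, with 4 of 21.

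Over all tested members, called ones included, the median log2 change in sh718 was 0.10, with 67 above 0 and 37 below, while all tested genes had a median of 0.00. Without 1 library it ran from 0.091 to 0.152, with values over 1.5 times the full one without control library 3 or sh718 library 3. Single members without a call still lay near 1 on this scale, with wide errors, such as ZNF28 at -0.99 (SE 0.42) in sh718 and ZNF350 and ZNF415, both at 0.98, in sh720. The other coding genes of chromosome 19 had a median of 0.12 in sh718, with 312 above 0 and 180 below, and ZNF genes elsewhere -0.05. In sh720 the medians were 0.02 for the members, -0.04 for the other chromosome 19 genes and 0.09 for ZNF genes elsewhere. Without 1 library the members' median in sh720 ran from -0.028 to 0.049, so it had no settled sign.

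Libraries that did not overlap control, all higher, were found for 15 members in sh718 (14.4%, against 16.3% of all tested genes) and 10 in sh720 (9.62%, against 11.6%). All lower were 7 members in sh718 (6.73%, against 17.1%) and 9 in sh720 (8.65%, against 11.9%). Among those higher in sh718 without a call were ZNF813 (log2 0.92, adjusted p 0.0791) and ZNF414 (0.51, adjusted p 0.173). These shares are descriptions and were not tested against the other genes.

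**Figure D4:**
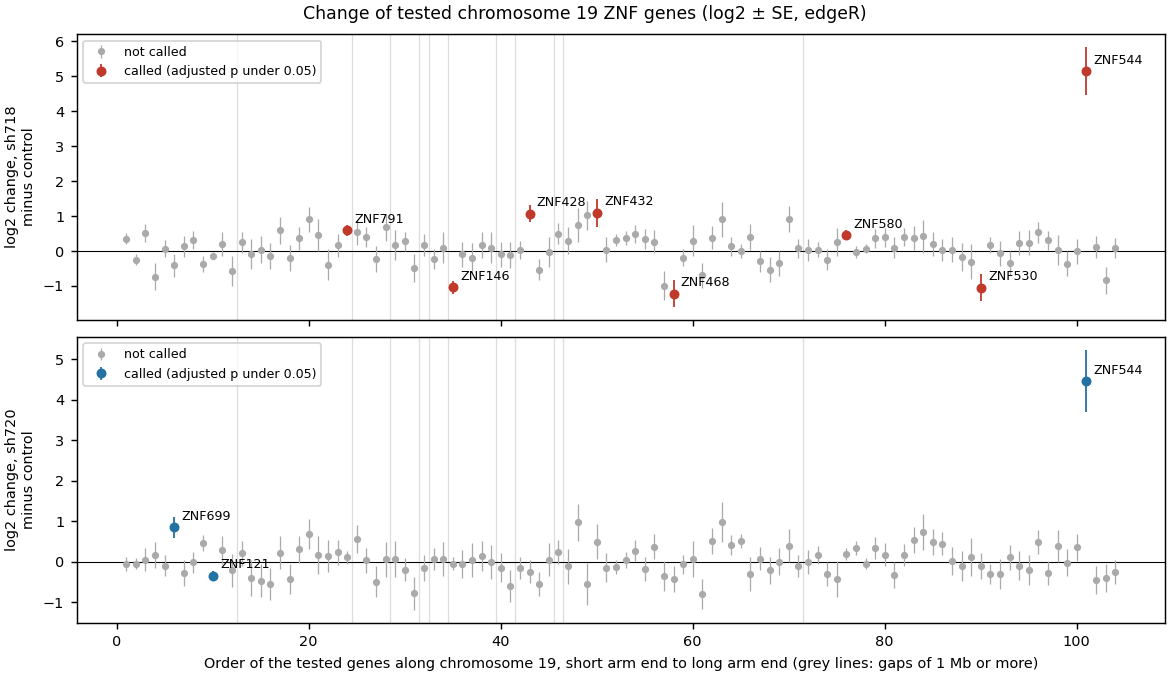
Log2 change ± SE (edgeR) of the 104 tested members against control in sh718 (top) and sh720 (bottom), in their order along chromosome 19, with called genes coloured and grey lines at gaps of 1 Mb or more. ZNF544 stands at 5.14 and 4.46, fitted values that depend on how its 1 control count is smoothed, and the other members lie between -1.22 and 1.1.

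The proteins that KRAB zinc fingers work through or with were given by a list of 32 cofactor genes, of which 31 were tested. ZNF274, itself a member, is on that list and was called in no comparison. TRIM28 had 325, 324 and 362 counts in control, 337, 414 and 370 in sh718, and 416, 307 and 416 in sh720, with log2 changes of 0.18 (SE 0.086, edgeR adjusted p 0.133) and 0.11 (SE 0.086, adjusted p 0.527). SETDB1, with 40, 43 and 49 summed counts, changed by 0.14 (SE 0.33, adjusted p 0.824) and 0.23 (SE 0.32, adjusted p 0.768). Neither was called in any comparison.

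In sh718 4 cofactors rose and 2 fell, 12.9% and 6.45% of those tested, against 9.56% and 10.8% of all genes. In sh720 1 rose and 1 fell, 3.23% each, against 3.43% and 3.42%. These shares were near the general rate, and the list medians were -0.01 and 0.03. TASOR, a subunit of the HUSH silencing complex, had 65, 68 and 74 counts in control, 44, 38 and 38 in sh718, and 56, 53 and 62 in sh720. It fell by 0.75 on the log2 scale in sh718 (SE 0.16, edgeR adjusted p 0.000354), whichever library was left out. The other 5 in sh718 each lost their call without at least 1 library: the heterochromatin protein gene CBX3 (0.26), the remodeller genes CHD3 (0.48) and ATRX (0.25), the histone chaperone gene DAXX (0.46), and the remodeller gene SMARCAD1 (-0.76). For these 5, leaving out the library that mattered most gave edgeR adjusted p of 0.111, 0.132, 0.229, 0.201 and 0.385. In sh720 ATRX rose by 0.33 (adjusted p 0.00831, or 0.248 without sh720 library 3) and SMARCAD1 fell by 1.05 (adjusted p 0.0157, or 0.0926 without sh720 library 3).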

How the data were processed

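The authors deposited raw counts per Ensembl gene for 9 libraries, 3 per line. Per the labels, single reads of 75 bp were made, and the submitters' processing notes name Trim Galore and GRCh38. Aligner, counter, strand setting and annotation: not given in the sources used here. Positions and exon lengths came from GENCODE v29 (GRCh38; all 214 members matched) and promoter windows from RefSeq (GRCh38.p14; 191 matched).

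The quasi-likelihood test of edgeR 4.0.16 (R 4.3.3, TMM scaling) was fitted to all 9 libraries together, for genes with at least 60 summed counts, with Benjamini-Hochberg adjustment over all 9556. DESeq2 1.42.0, RLE and upper-quartile scaling, other minimums, a 2-line fit, a block on library number and leaving out each library were the alternatives. Library pairs of a line differed beyond sampling noise (chi-square per degree of freedom 1.31 to 2.4). The highest values, 2.4 and 2.34, were those of sh718 library 2 against sh718 libraries 1 and 3, which gave 1.31 against each other.

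The members and lists were chosen with earlier results of these data known. Named were ZNF544 with 3 members on each side, called members (at most 8 per direction and comparison), the 5 highest per kilobase in control, and called cofactors. TRIM28, SETDB1 and untested members were named outside that rule. The NRF1 word was shortened to its core after a longer form had been counted. Precision is limited by 883663 to 1108960 counts per library.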

Additional observations from a re-analysis of the deposited data

Results flagged for a closer look

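For 8 members the change against control differed between the hairpin lines, by the test of sh718 against sh720 itself (edgeR adjusted p under 0.05). These were 7.69% of the tested members, where 25.3% of all tested genes differed. The log2 differences were -1.26 for ZNF699, -1.0 for ZNF146, -0.85 for ZNF426 and -0.50 for ZNF677, all lower in sh718. They were 1.56 for ZNF614, 1.31 for ZNF428, 0.47 for ZNF791 and 0.42 for ZNF557, all higher in sh718.

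The same test called 6 cofactor genes, 19.4% of those tested and also below the 25.3% of all genes. MORC2, which encodes a HUSH-linked ATPase, differed by -1.51 (26, 11 and 34 summed counts in control, sh718 and sh720), the methyl-CpG binding gene MBD1 by -0.68 and the histone deacetylase gene HDAC2 by -0.26. RESF1, a partner of SETDB1, differed by 1.03, CBX5 by 0.57 and CHD3 by 0.48. Of these 6, CHD3 alone was also called against control, in sh718. The calls between the hairpin lines were lost without certain single libraries for MORC2 (edgeR adjusted p 0.0736 and 0.0757), MBD1 (0.0662 to 0.097), HDAC2 (0.0886 to 0.19) and RESF1 (0.0525). That of HDAC2 was also lost with upper-quartile scaling (0.0769) and without a count minimum (0.0641). DESeq2 did not call MORC2, MBD1, HDAC2 or CHD3 (adjusted p 0.0887 to 0.173).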

How the results depend on the processing

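No result for a named gene changed direction under any alternative where it was called. Counts of calls moved more. In sh718 against control (5 higher, 3 lower), DESeq2 called 3 and 1, and a minimum of 120 counts, which leaves ZNF544, ZNF432, ZNF468 and ZNF530 untested, gave 3 and 1. Without 1 library the counts ran from 3 to 8 higher and from 2 to 3 lower. The 8 came without sh718 library 2, and the 3 without sh718 library 3 or control library 1 or 2. In sh720 (2 higher, 1 lower), DESeq2 called 0 and 0, with 8 members at an unadjusted p under 0.05 by edgeR, and no adjusted p for ZNF544. No count minimum gave 1 and 0, a minimum of 120 gave 1 higher, and leaving out 1 library gave 1 to 3 higher and 0 to 1 lower. Between the hairpin lines (4 and 4), DESeq2 called 1 higher, and leaving out 1 library gave 2 to 6 higher and 3 to 4 lower. RLE and upper-quartile scaling kept every member call of all 3 comparisons and added ZNF766 between the hairpin lines.

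The libraries carry numbers 1 to 3 in each line, but same-numbered libraries did not deviate together (r from -0.0127 to 0.0219 over genes), so the numbers were not read as pairs. With the replicate block the 8, 3 and 8 calls were kept and ZNF677 was added in sh720 (adjusted p 0.0492). The family median in sh718, 0.098, was 0.161 at a minimum of 120 counts and 0.091 to 0.152 without 1 library. The depth leaves 110 of 214 members untested.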
